A study of Mus musculus with 2 samples.

Results

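Plasma cells, the antibody-secreting end stage of the B lineage, made up 51 of 16932 barcodes kept from 2 single-cell RNA sequencing libraries of mouse lung immune cells. They were selected on raw UMI counts (a UMI is 1 tagged RNA molecule): at least 20 for Jchain, at least 2 for Mzb1 and at least 1 for Xbp1, none for Cd3d, Cd3e and Cd3g together, and at most 1 for C1qa, C1qb and C1qc together. Barcodes were kept with at least 300 genes and a mitochondrial share under 10%. The oil library gave 21 plasma cells among 6794 kept barcodes, and the tamoxifen library 30 among 10138. None of the 51 barcodes occurred in the other library, although 41 barcodes in all did.

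Both libraries came from adult mice with a tamoxifen-inducible Cre recombinase driven by Gli1, labelled Gli1creERT, and floxed Hhip, which encodes a Hedgehog-binding inhibitor. Animals of one group received oil, the control, and those of the other received tamoxifen, so that Hhip is removed in cells with an active Gli1 promoter, a gene of mesenchymal cells. A CD45 antibody was given into the blood shortly before death, and lung cells that were live, CD45-positive and free of that antibody were sorted and sequenced with 10x 3' chemistry. The labels give neither how many mice were pooled nor their sex or exact age, both groups carried both alleles, and each group is a single library. There is therefore no replicate and no test: every interval is a 95% interval for counting error alone, and PCR and droplet effects are outside it. Intervals are exact, except that those of a ratio of 2 shares are normal approximations on the log scale.

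Plasma cells arise when an activated B cell switches off its B cell program, expands its endoplasmic reticulum (ER) and turns most of its transcription over to one heavy and one light immunoglobulin chain. The factors Prdm1, Irf4 and Xbp1 direct that change. At mucosal surfaces many plasma cells make IgA, which is joined into dimers by the J chain and carried across the epithelium, and long-lived plasma cells depend on survival receptors such as BCMA (Tnfrsf17), which binds the ligands APRIL and BAFF.

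Because the rule used Jchain, Mzb1 and Xbp1, their levels describe the selection. Jchain ran from 184 to 3154 UMIs per cell in oil (median 1251) and from 53 to 3820 in tamoxifen (median 1276), with the second lowest tamoxifen cell at 75. Outside the limit lay 38 oil and 56 tamoxifen barcodes that met every other condition. The highest of these held 3 and 4 Jchain UMIs, and 79 of the 94 held none, so no barcode fell near the limit of 20. Median UMIs per plasma cell were 46 and 32 for Mzb1, an ER protein that helps assemble immunoglobulin, and 20 and 17.5 for the transcription factor Xbp1. Of 70 kept barcodes with at least 20 Jchain UMIs, 5 lacked the needed Mzb1 or Xbp1, all in tamoxifen, and 14 were removed by the Cd3 or C1q limits, 8 in oil and 6 in tamoxifen. Of those 14, 6 carried a single Cd3 UMI and no C1q excess.

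The label was checked on 3 markers that the rule did not use. Igha, the IgA heavy chain, had UMIs in 17 of 21 oil plasma cells and in 26 of 30 from tamoxifen, Derl3, an ER degradation factor, in 20 and 26, and Tnfrsf17 in 16 and 23. Free RNA sets a background for the first of these. T cells of the same libraries (2278 and 3994) held at least 1 Igha UMI in 10.1% and 8.79%, at a highest count of 5 and 15, against medians of 1818 and 1401 per plasma cell. Derl3 was seen in 0.746% and 0.701% of T cells, and Tnfrsf17 in none. Scrublet, which scores barcodes for resemblance to mixed pairs, marked none of the 51. Its automatic threshold marked only 4 oil barcodes, so the 369 highest scores were used there, and 473 barcodes were marked in tamoxifen.

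Across all barcodes the matrices held 5.77e+07 UMIs in oil and 8.37e+07 in tamoxifen. Of kept barcodes, 24 in oil (40 UMIs) and 13 in tamoxifen (29 UMIs) carried Hhip, and no plasma cell held an Hhip or Gli1 UMI, so these cells give no direct check of the deletion. The plasma cells had the most UMIs in all of the 4 classes examined, with a median of 29602 UMIs in oil and 23287.5 in tamoxifen, against 6700.5 and 6191 for B cells. Outside immunoglobulin genes the medians were 11315 and 8287 UMIs, against 10674 and 9921 for alveolar macrophages. Other cell types left transcripts in a few of them. In 7 plasma cells, 2 in oil and 5 in tamoxifen, the markers of 1 other type held at least 0.1% of UMIs outside immunoglobulin genes. Macrophage markers summed to 255 UMIs per 1e+06 (CPM) in oil and 1224 in tamoxifen plasma cells, fibroblast markers to 0 and 158, and T cell markers to 74.5 and 40.2.

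Plasma cells made up 0.309% of kept barcodes in oil (0.191 to 0.472%) and 0.296% in tamoxifen (0.200 to 0.422%). The log2 ratio of tamoxifen over oil was -0.06, with an interval from -0.87 to 0.74, so no difference was detectable at these counts. Alveolar macrophages were more frequent in the tamoxifen library, at 1657 against 283 barcodes. Without them the shares were 0.323% and 0.354%, and the log2 ratio was 0.13 (-0.67 to 0.94). Among plasma and B cells together, plasma cells were 11.9% in oil (7.50 to 17.6%) and 10.1% in tamoxifen (6.92 to 14.1%). B cells were here barcodes with at least 2 Cd79a and 1 Ms4a1 UMIs and fewer than 20 for Jchain, 156 in oil and 267 in tamoxifen. Lifting the Cd3 and C1q limits, an alternative added after the data were seen, gave 29 oil and 36 tamoxifen plasma cells.

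IgA was the isotype of most lung plasma cells. A heavy chain class was assigned where it held at least 80% of a cell's heavy chain constant UMIs, with a minimum of 10. IgA was assigned to 40 of 51 cells (78.4%, 64.7 to 88.7%), 15 of 21 in oil (71.4%, 47.8 to 88.7%) and 25 of 30 in tamoxifen (83.3%, 65.3 to 94.4%). IgM was assigned to 5 cells, 3 in oil and 2 in tamoxifen, and IgG to 6, 3 in each library. No cell was assigned IgD or IgE, which allows a share of up to 6.98% for each. The log2 ratio of the IgA share in tamoxifen over oil was 0.22 (-0.23 to 0.68), which was within counting error. Every cell received a class. The 40 IgA cells held a median of 2242 Igha UMIs (116 to 10548), the 5 IgM cells had none, and the 6 IgG cells had at most 21.

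The IgG cells used Ighg2b and Ighg2c. In 2 oil cells Ighg2c held 99.3% and 99.7% of heavy chain constant UMIs, with 801 and 5995 UMIs, and in 1 tamoxifen cell Ighg2b held all 4334. The other 3 IgG cells had both, with Ighg2b at 75.8%, 62.8% and 67.9%. These constant regions are near-identical in places and reads can be split between them, so the subclass of those 3 cells is uncertain. Ighg1 had no UMI in any IgG cell. The constant genes lie in 1 cluster on the minus strand of GRCm38 chromosome 12, with Ighm at chr12:113418558-113422730, Ighg2b at chr12:113302965-113307933, Ighg2c at chr12:113285325-113288932 and Igha at chr12:113254830-113260236.

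Kappa was the light chain of 49 cells and lambda that of 2 (3.92%, 0.478 to 13.5%), both IgM cells from tamoxifen. Igkc, at chr6:70726435-70726966, reached a median of 8900 UMIs per oil and 5876.5 per tamoxifen plasma cell, and was at 16 and 89 in the lambda cells. Those 2 cells held 11596 and 23113 lambda constant UMIs. In T cells Igkc was present in 30.8% of oil and 27.9% of tamoxifen barcodes, at a highest count of 17 and 35. One IgA kappa cell of tamoxifen held 681 lambda UMIs beside 20599 of Igkc.

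Immunoglobulin genes and Jchain took a median of 60.5% of a plasma cell's UMIs, from 7.31% to 84.1% (oil 20.2 to 79.7%, median 60.5%; tamoxifen 7.31 to 84.1%, median 61.6%). In B cells the median was 0.961% in oil and 0.921% in tamoxifen, and the summed share in T cells was 0.0146% and 0.0131%. The lowest plasma cell thus lay above the medians of the B cells of both libraries. The 21 and 30 plasma cells held 63.6% of all kept immunoglobulin UMIs of the oil library and 84.3% of those of tamoxifen. These 2 values depend on the selection. The barcodes removed by the Cd3 or C1q limits, 8 in oil and 6 in tamoxifen, are not counted in them. Those barcodes had median immunoglobulin shares of 63.6% in oil and 21.5% in tamoxifen, at medians of 33771.5 and 15221 UMIs. B cells held 2.45% and 3.73% of kept immunoglobulin UMIs. The distribution had a low tail: 11 of 51 cells were under 30%, 4 in oil and 7 in tamoxifen, and 16 were under 50%. The cell at 7.31% came from tamoxifen, held 46992 UMIs in 5352 genes, the most genes of all 51, and was one of the 7 with markers of another type.

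**Figure D1:**
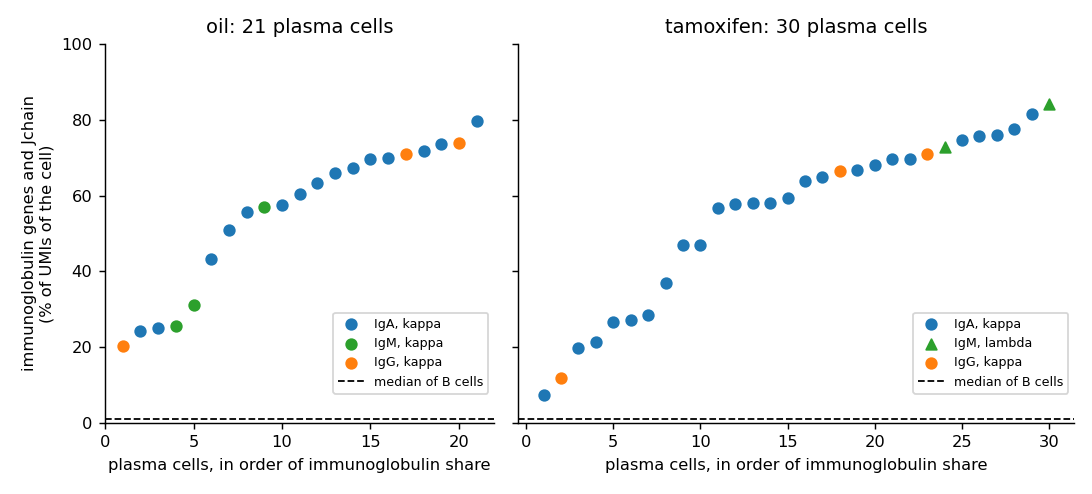
Share of each plasma cell's UMIs in immunoglobulin genes and Jchain (y axis, percent), with cells in rank order (x axis), for the oil library (left, 21 cells) and the tamoxifen library (right, 30 cells). Colour gives the heavy chain class and shape the light chain, and the dashed line is the B cell median; IgA, IgM and IgG cells are spread over the range, and every cell lies above the line.

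The immunoglobulin share was related to other parts of the transcriptome across the 51 cells, given here as a description because cells of 1 library share its RNA, reagents and depth. Spearman's rho with the mitochondrial share was -0.47 (oil -0.43, tamoxifen -0.47) and with total UMIs 0.38 (0.32 and 0.41). Against the share of the remaining UMIs held by each gene list, rho was 0.63 for the translocon and signal peptidase genes, 0.64 for ER-associated degradation, 0.61 for B cell identity genes (oil 0.40, tamoxifen 0.77), 0.58 for plasma transcription factors and 0.17 for ER chaperones. For cycling genes it was -0.42 (-0.50 and -0.33). These are shares of the UMIs left after immunoglobulin is taken out, and rho was -0.37 with the share of T cell markers and -0.21 with that of macrophage markers, whose part in the other correlations was not tested.

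Variable genes differed from cell to cell. A variable gene was assigned where it held at least 60% of its family's UMIs in a cell, with a minimum of 3. An Ighv gene was assigned in 43 cells and an Igkv gene in 50, with 28 distinct genes in each. The most used were Igkv1-117, in 6 cells, and Ighv1-26, Ighv1-53, Ighv1-74 and Ighv9-3, in 3 cells each. In 41 kappa cells with both assigned there were 38 distinct pairs. Only 3 pairs occurred in more than 1 cell. Ighv1-53 with Igkv4-55 was found in 2 tamoxifen IgA cells, and Ighv1-78 with Igkv6-25 in another 2. Ighv9-3 with Igkv1-117 was found in 1 oil IgG cell and 1 tamoxifen IgA cell. With the 60% limit lifted, Ighv1-26 with Igkv3-4 was also the top pair of 2 tamoxifen IgA cells. The libraries read the 3' end and give no junction sequence, so a shared pair does not show a shared clone, and related variable genes can take each other's reads.

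Plasma cells and B cells of the same library were then compared gene by gene. UMIs were summed over the cells of a class and given as CPM of all UMIs outside immunoglobulin genes and Jchain. A gene was tested with at least 30 UMIs in the higher class of each library, and it was called where it differed past 2-fold the same way in both libraries. Of 2737 genes tested, 734 were called (26.8%), 266 higher in plasma cells (9.72%) and 468 lower (17.1%). The median log2 ratio over all tested genes was -0.45 in oil and -0.46 in tamoxifen. These counts depend on the scaling. Median-of-ratios scaling moved the median by 0.45 and gave 387 higher and 229 lower genes (62.8% of calls higher, against 36.2%). With CPM over all UMIs, where immunoglobulin takes up most of the total, the median moved by -1.24, and 99 genes were higher and 2364 lower (4.02% higher). Of 130 calls on listed genes, 125 were kept under the first and 94 under the second.

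Genes of the secretory pathway were higher in plasma cells almost throughout. Of 19 tested genes of the translocon, the channel through which new chains enter the ER, and of signal peptide removal, 17 were called higher and none lower, at a median log2 ratio of 2.42 in oil and 2.30 in tamoxifen. ER chaperones gave 15 of 16 (3.34 and 3.18), disulfide isomerases and oxidases 8 of 9 (2.95 and 3.08) and N-glycosylation genes 13 of 14 (2.43 and 2.27). Mzb1, a rule gene, is among the 15 chaperones, and its call describes the selection. ER-associated degradation, which removes misfolded chains, gave 13 of 13 (2.77 and 2.57), and ER to Golgi transport 10 of 14 (1.83 and 1.70). No gene of these 6 lists was called lower. Of all tested genes, 9.72% were called higher and 17.1% lower. Only tested genes are counted, and a gene that is low in B cells could pass the minimum through its level in plasma cells. Of the members listed, 4 of 23, 1 of 17, 5 of 14, 6 of 20, 7 of 20 and 16 of 30 were not tested.

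**Figure D2:**
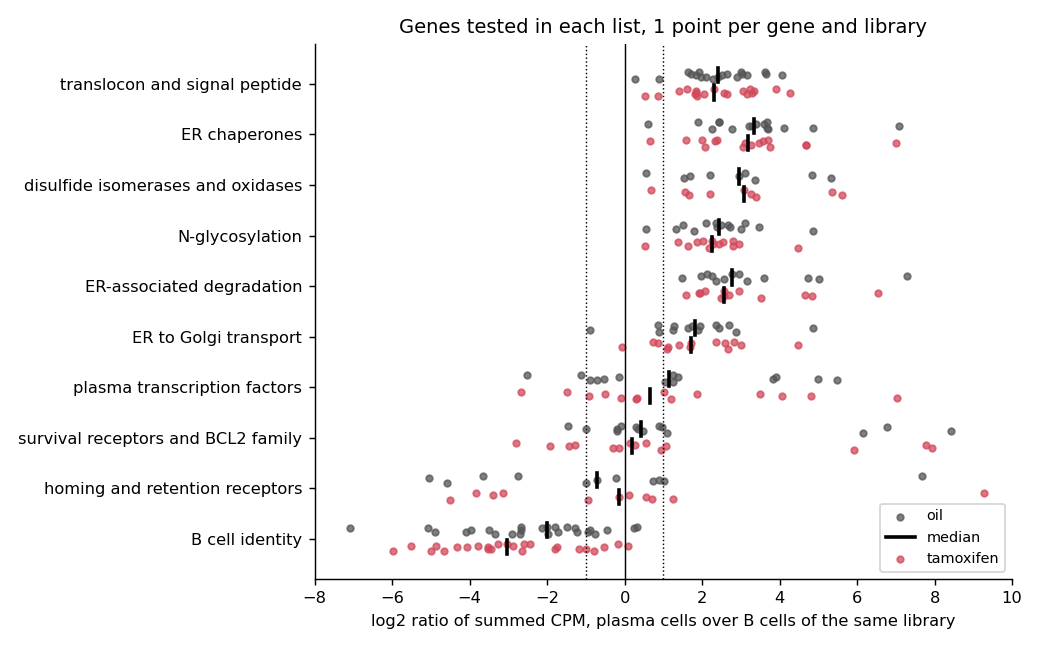
Log2 ratio of summed CPM in plasma cells over B cells of the same library (x axis) for the tested genes of 10 lists (y axis), 1 point per gene and library, grey for oil and red for tamoxifen. The rule genes Mzb1 (ER chaperones) and Xbp1 (transcription factors) are included. Black bars are medians and dotted lines mark 2-fold; the 6 secretory lists lie to the right, with medians between 1.70 and 3.34, and B cell identity genes lie to the left, at -2.02 and -3.03.

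Among translocon genes, Ssr4, a subunit of the translocon-associated complex, stood at 3362 CPM in oil plasma cells and 201 in oil B cells, and at 4097 and 212 in tamoxifen. Its log2 ratios were 4.07 (3.86 to 4.28) and 4.27 (4.11 to 4.43). Sec11c, a catalytic subunit of signal peptidase, stood at 3194 and 261 CPM in oil and at 3413 and 229 in tamoxifen. Its relative Sec11a had only 30 and 26 UMIs in plasma cells and was not tested. Sec61b, part of the channel itself, reached 2073 against 362 CPM in oil and 2213 against 373 in tamoxifen. Srp14, of the signal recognition particle (log2 0.27 and 0.52), and Sec62 (0.89 and 0.87) stayed under 2-fold.

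Hsp90b1 (GRP94), a chaperone of the ER lumen, stood at 10126 CPM in oil plasma cells against 781 in B cells, and at 8134 against 601 in tamoxifen, log2 ratios of 3.70 and 3.76. Hspa5 (BiP), which binds unassembled heavy chains, stood at 3817 against 700 and at 2930 against 566 CPM. Fkbp11, a peptidyl-prolyl isomerase, stood at 651 against 4.83 and at 446 against 3.49 CPM, a log2 ratio of 7.07 (5.92 to 8.54) in oil and one between 5.92 and 8.34 in tamoxifen. Creld2, a secreted product of ER stress signalling, stood at 897 against 30.6 and at 580 against 22.4 CPM. Canx, the membrane-bound lectin chaperone, differed least, at 329 against 217 and 288 against 182 CPM (log2 0.60 and 0.66), and was not called. Its soluble relative Calr was called, at log2 1.89 and 1.58. The chaperones with large and small differences can be set beside their promoters.

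Promoters of chaperone genes are known to carry the ER stress response element, a pair of boxes, CCAAT and CCACG, with 9 bases between them, that ATF6 and XBP1 act through together with a CCAAT-binding factor. The 250 bases before the start of each gene were searched on both strands (RefSeq, GRCm38.p6). The element was found in 35 of 27025 genes (0.13%) and in 6 of the 14 ER chaperones with a window (42.9%): Hspa5, Hsp90b1, Calr, Canx, Creld2 and Dnajc3. It was found in 2 of 16 degradation genes, Derl3 and Syvn1, in 1 of 11 disulfide genes, Pdia6, and in none of 16 translocon, 16 N-glycosylation or 25 transport genes. Over these 6 lists that is 9 of 98 genes with a window, of 123 listed. It was found in none of the 17 B cell identity or 21 survival genes with a window. Of the 9 genes, 7 were called higher, Canx stayed under 2-fold, and Syvn1 was not tested. Nearly all tested genes of their lists were called higher: 15 of 16 chaperones, 13 of 13 degradation genes and 8 of 9 disulfide genes. Whether the element goes with a higher level was not tested. A shorter element (ATTGG, 1 base, CCACG) was found in 10 genes, of which Herpud1 is in these lists, and the XBP1 core TGACGTGG in 163 genes (0.603%), 8 of the 98 among them. A match is a description of the letters, not a measured binding site.

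Windows of 5 genes are shown with the boxes in capitals, each read 5′ to 3′ on its gene's own strand and ending at the base before the start. Hspa5, Hsp90b1, Creld2 and Derl3 are called higher in plasma cells, and Canx holds the element without being called. Hspa5 lies at chr2:34771840-34772089 on the plus strand, Hsp90b1 at chr10:86705445-86705694 on the minus strand, Creld2 at chr15:88819396-88819645 on the plus strand, Derl3 at chr10:75893148-75893397 on the plus strand and Canx at chr11:50325674-50325923 on the minus strand.
Hspa5: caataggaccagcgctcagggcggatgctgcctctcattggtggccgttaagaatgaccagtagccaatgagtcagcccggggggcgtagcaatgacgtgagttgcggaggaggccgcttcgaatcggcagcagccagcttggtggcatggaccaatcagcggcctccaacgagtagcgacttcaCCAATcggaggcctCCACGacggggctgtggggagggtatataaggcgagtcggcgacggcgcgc
Hsp90b1: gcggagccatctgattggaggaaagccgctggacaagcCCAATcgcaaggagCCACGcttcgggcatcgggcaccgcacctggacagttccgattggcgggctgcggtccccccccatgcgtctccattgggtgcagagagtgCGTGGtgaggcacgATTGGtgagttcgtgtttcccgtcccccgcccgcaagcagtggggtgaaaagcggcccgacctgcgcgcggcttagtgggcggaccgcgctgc
Creld2: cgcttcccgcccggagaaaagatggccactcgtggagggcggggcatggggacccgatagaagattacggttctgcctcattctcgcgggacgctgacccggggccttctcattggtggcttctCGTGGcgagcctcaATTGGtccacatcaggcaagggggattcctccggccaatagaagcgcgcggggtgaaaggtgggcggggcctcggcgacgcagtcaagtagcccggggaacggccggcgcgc
Derl3: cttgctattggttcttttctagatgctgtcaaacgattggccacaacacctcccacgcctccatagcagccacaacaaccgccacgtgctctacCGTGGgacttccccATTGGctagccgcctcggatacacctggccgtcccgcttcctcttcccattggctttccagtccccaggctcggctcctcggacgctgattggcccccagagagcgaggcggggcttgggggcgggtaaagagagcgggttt
Canx: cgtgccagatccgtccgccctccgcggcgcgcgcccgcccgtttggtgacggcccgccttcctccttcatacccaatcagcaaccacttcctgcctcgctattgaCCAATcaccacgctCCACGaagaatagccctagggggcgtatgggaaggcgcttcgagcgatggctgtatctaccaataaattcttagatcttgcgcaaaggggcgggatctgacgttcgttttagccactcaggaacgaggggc
Hsp90b1 holds 2 copies in opposite orientation, spanning 88 to 212 bases before the start. The single copy of Hspa5 is the closest to a start of the 5, at 46 to 65 bases, and those of Creld2 (107 to 126), Canx (126 to 145) and Derl3 (137 to 156) lie farther out. Creld2 and Derl3 have the element in the reverse orientation, where it reads CGTGG and ATTGG. All 5 were chosen because they hold the element, and their log2 ratios in oil ran from 0.60 for Canx to 7.28 for Derl3.

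Enzymes that form disulfide bonds in immunoglobulin were led by Txndc5, at 1603 CPM in oil plasma cells against 40.3 in B cells and at 2263 against 46.3 in tamoxifen (log2 5.31 and 5.61), and by Prdx4, an ER peroxidase, at 572 against 20.1 and 858 against 20.9. Pdia4, Pdia6, Pdia3 and P4hb, all of the protein disulfide isomerase family, had log2 ratios between 1.53 and 3.40, and Erp29 stayed under 2-fold (0.54 and 0.69). Pdia5 and the pancreatic Pdia2 had no UMI in plasma cells. Lman1, a cargo receptor for glycoproteins leaving the ER, stood at 866 against 29.8 and 842 against 37.9 CPM. Of the glycosyltransferase subunits, Ddost (3.47 and 2.95) and Rpn1 (3.10 and 2.80) were called and the catalytic Stt3b was not (0.55 and 0.52).

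Derl3 showed the greatest difference of the degradation genes, at 376 against 2.42 CPM in oil and 372 against 3.99 in tamoxifen, log2 ratios of 7.28 (5.69 to 9.59) and 6.55 (5.52 to 7.79). Edem1 and Edem2, lectins that direct misfolded glycoproteins to removal, stood at 980 against 37.1 and 890 against 27.4 CPM in oil and at 1013 against 39.9 and 878 against 30.9 in tamoxifen. Herpud1 (log2 2.77 and 2.57) and Sel1l (3.59 and 2.70), of the membrane complex, were also called, as was the extracting ATPase Vcp (1.48 and 1.59). Vcp lost its call with CPM over all UMIs.

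Of the 9 tested genes of the unfolded protein response, 7 were called higher and none lower, against 9.72% and 17.1% of all tested genes. The 7 were Xbp1, a rule gene, with Hspa5, Dnajb9, Herpud1, Edem1, Atf6 (log2 1.38 and 1.87) and Atf4 (1.25 and 1.00). Genes of the stress branch that leads to arrest and death were sparse. Ddit3 (CHOP) had 9 oil and 4 tamoxifen UMIs, Trib3 none and Chac1 1 and 2. Ppp1r15a was at 118 against 99.1 CPM in oil and 73.8 against 107 in tamoxifen and was not called. Atf4 and Atf6 kept their calls in all but 3 and 4 of the alternative settings.

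Of 14 tested transcription factors of the plasma cell list, 7 were called higher, 2 lower and 5 neither. Of all tested genes, 9.72% were called higher and 17.1% lower. Xbp1, a rule gene, is among the 7, and its call describes the selection. Prdm1 (Blimp-1), the repressor of the B cell program, had UMIs in all 21 oil and 19 of 30 tamoxifen plasma cells, at 408 against 27.4 and 268 against 23.9 CPM (log2 3.90 and 3.49). Eaf2 (5.47 and 7.04), a partner of the ELL elongation factors, Ell2 (1.04 and 1.19), which favours the secreted form of heavy chain, and Creb3l2 (3.83 and 4.07) were called as well. Ell2 turned to -0.094 with CPM over all UMIs. Irf4 was at 184 against 49.9 CPM in oil and 77.1 against 43.8 in tamoxifen, below the minimum of UMIs in tamoxifen, and was not tested. The 2 lower factors were Id3, with no plasma cell UMI, and Pou2f2, whose call was lost under median-of-ratios scaling and without cells holding another type's transcripts. The coactivator Pou2af1 was at 357 against 149 and 188 against 153 CPM.

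Of 25 tested B cell identity genes, 18 were lower in plasma cells and none higher, against 17.1% and 9.72% of all tested genes. The median log2 ratio of the list was -2.02 in oil and -3.03 in tamoxifen. Pax5, the factor that maintains B cell identity, had no UMI in 51 plasma cells, against 134 and 116 CPM in B cells. With 3 UMIs as the limit that a count of 0 allows, its log2 ratio was -3.51 in oil and -3.53 in tamoxifen, and the exact intervals, which take in the error of the B cell count, reach up to -3.19 and -3.22. Fcer2a, the low-affinity IgE receptor, had none either. Ebf1 was at 58.8 against 999 CPM in oil and 87.2 against 997 in tamoxifen. Bach2 (0 and 2 UMIs), Spib (0 and 1) and Ciita (7 and 1), all factors of the mature B cell, were called lower too. Ms4a1 and Cd79a defined the B cells, and their differences describe that choice.

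Several B lineage genes were held in plasma cells. Cd74, the class II invariant chain, was at 10432 CPM against 14208 in oil and 8570 against 12315 in tamoxifen, and had UMIs in all 51 cells. Cd79b, of the B cell receptor, was at 361 against 610 and 282 against 490 CPM. The class II genes H2-Eb1 (log2 -1.72 and -1.81) and H2-Aa (-1.27 and -2.87) were called lower, and H2-Ab1 (-0.90 and -1.75) was not. H2-Aa lost its call under median-of-ratios scaling. One cell held 58.7% of the oil H2-Aa UMIs. Among the 11 plasma cells not assigned IgA, 1 cell held 86.3% of the H2-Eb1, 50.3% of the H2-Ab1 and 31.3% of the Cd74 UMIs. For the 40 IgA cells these highest shares were 42.7%, 18.8% and 13.9%. Ly6d was at 2857 against 2294 and 1402 against 1593 CPM. Ptprc, which encodes the sorted CD45, was at 306 against 590 and 251 against 571 CPM.

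Ranked by how far their intervals lay from equality, several of the genes higher in plasma cells were not among the secretory genes named above. Prg2, known as eosinophil major basic protein, stood at 678 CPM in oil and 3316 in tamoxifen plasma cells, in 15 of 21 and 21 of 30 cells, with 0 and 1 UMI in B cells. The log2 ratio of Prg2 had an exact lower limit of 7.82 in oil, and in tamoxifen it was 12.70 (10.22 to 18.01). Ly6c2 stood at 2598 against 23.4 and 2183 against 16.4 CPM, and Slpi, a secreted protease inhibitor, at 8328 against 8.86 and 3192 against 18.9 CPM. For Slpi 1 cell held 58.0% of the oil UMIs and 1 cell 59.5% of the tamoxifen UMIs. Trp53inp1, a p53-induced gene, stood at 831 against 19.3 and 966 against 23.9 CPM, and Selenom and Tmem176b were also in this group. All 40 genes named for this comparison kept their calls in every alternative but the one with at least 100 UMIs, where 32 did. Epcam, an epithelial adhesion gene, was called higher, at 259 against 55.6 and 205 against 38.4 CPM, while no other of the 7 epithelial markers was tested and 4 had no plasma cell UMI.

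Among survival receptors, Tnfrsf17 (BCMA, chr16:11313812-11320074) set plasma cells apart. Its 68 oil UMIs lay in 16 of 21 plasma cells and its 98 tamoxifen UMIs in 23 of 30, at 266 and 329 CPM. B cells held 3 UMIs in oil (2.42 CPM), all in 1 cell, and none in tamoxifen. The log2 ratio was 6.78 (5.18 to 9.10) in oil, and in tamoxifen its exact lower limit was 7.45. Its relatives behaved otherwise. Tnfrsf13b (TACI) stood at 235 against 110 and 181 against 95.2 CPM, at log2 1.09 (0.63 to 1.54) and 0.93 (0.46 to 1.37), and was not called. Tnfrsf13c, the BAFF receptor of mature B cells, stood at 31.4 against 86.2 and 16.8 against 118 CPM and was called lower. In all, 3 of the 14 tested genes of this list were called higher and 2 lower, against 9.72% and 17.1% of all tested genes, at median log2 ratios of 0.41 and 0.20.

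The other genes called higher were Sdc1 and Cd28. Sdc1 (CD138, chr12:8771323-8793715), a heparan sulfate proteoglycan that holds APRIL at the surface, stood at 274 CPM in oil and 245 in tamoxifen, in 19 of 21 and 20 of 30 plasma cells, with 1 and 2 UMIs in B cells. The log2 ratios were 8.41 (5.89 to 13.74) and 7.94 (6.04 to 11.01). Cd28 (chr1:60716800-60773359), a costimulatory receptor also used by plasma cells, stood at 231 against 3.22 and 121 against 1.99 CPM, in 16 of 21 and 17 of 30 cells. Pmaip1 (NOXA) was the other gene called lower and lost that call in 7 alternative settings.

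The cytokine receptors of this list were sparse. Il6ra had 6 oil and 7 tamoxifen UMIs, Il6st 17 and 7, Il5ra 3 and 0, and Cd93 4 and 7, and none was tested. Of the BCL2 family, Mcl1, on which plasma cells are known to rely, stood at 651 against 336 CPM in oil and 466 against 387 in tamoxifen (log2 0.95 and 0.27). Bcl2 was level, at 90.1 against 92.6 and 73.8 against 73.2 CPM, while Bcl2l1 had 2 and 4 UMIs. The pro-death Bcl2l11 (BIM) stood at 149 against 117 and 245 against 117 CPM, log2 0.35 (-0.21 to 0.87) and 1.07 (0.67 to 1.46). None of these was called.

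Because plasma cells were deeper than B and T cells, shares of cells with a UMI were also taken after thinning each cell to 1000 UMIs outside immunoglobulin genes, which left out 46 oil and 84 tamoxifen T cells and 1 tamoxifen B cell. Tnfrsf17 was then seen in 7 of 21 oil plasma cells (33.3%, 14.6 to 57.0%) and 12 of 30 tamoxifen plasma cells (40%, 22.7 to 59.4%), and in no T cell or B cell, which allows up to 0.134% of oil T cells and 0.0767% of tamoxifen T cells. Before thinning it was seen in 76.2% and 76.7% of plasma cells. Sdc1 was seen in 23.8% and 23.3% of thinned plasma cells and in 4.08% and 5.93% of T cells. Cd28, a T cell gene, was seen in 28.6% and 16.7% of plasma cells and in 23.5% and 18.0% of T cells, but in no B cell. T cells express Cd28 themselves, so they give no background for it. The plasma cells lack Cd3 UMIs by selection, so that absence cannot show where their Cd28 comes from. T cell markers summed to 74.5 CPM in oil and 40.2 in tamoxifen plasma cells, and the source of Cd28 was not tested. Tnfrsf13b was seen in 42.9% of oil and 16.7% of tamoxifen plasma cells, and in 10.9% and 10.5% of B cells.

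**Figure D3:**
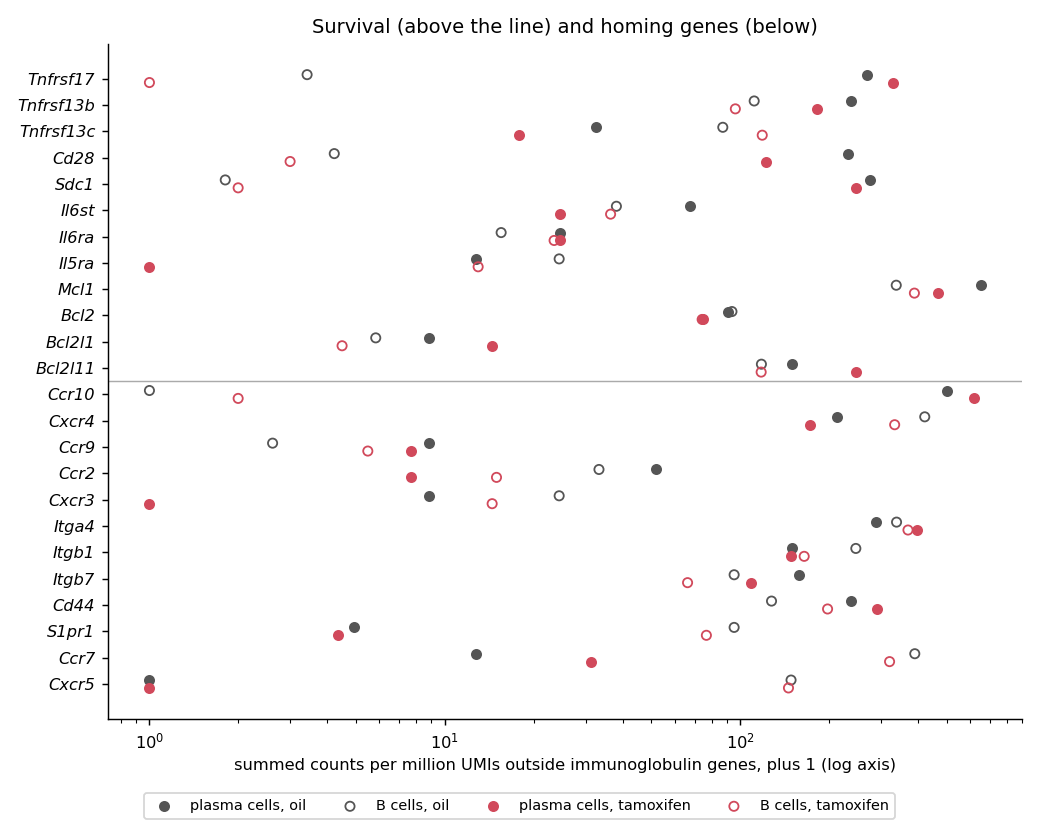
Summed CPM outside immunoglobulin genes, plus 1, on a log axis (x) for survival genes (above the line) and homing genes (below), in plasma cells (filled) and B cells (open) of the oil (grey) and tamoxifen (red) libraries. Tnfrsf17, Cd28, Sdc1 and Ccr10 stand apart in plasma cells of both libraries, and Cxcr5, S1pr1 and Ccr7 are low there.

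Of 11 tested homing and retention genes, 2 were called higher and 4 lower, against 9.72% and 17.1% of all tested genes. Ccr10 (chr11:101172997-101175443), the receptor for the epithelial chemokines CCL27 and CCL28 that marks mucosal IgA plasma cells, stood at 498 CPM in oil and 617 in tamoxifen, in 17 of 21 and 23 of 30 cells. B cells held 0 and 2 UMIs, which puts the log2 ratio at 7.37 or more in oil (exact lower limit) and at 9.27 (7.40 to 12.33) in tamoxifen. After thinning it was seen in 28.6% and 40% of plasma cells and in 1.16% and 0.716% of T cells. Cd9, a tetraspanin, was the other higher gene (log2 1.02 and 1.24). It turned to -0.045 with CPM over all UMIs.

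Receptors for follicle position, lymphoid tissue and exit were lower. Cxcr5 had no UMI in 51 plasma cells, against 147 CPM in oil and 144 in tamoxifen B cells. Ccr7 was at 11.8 against 388 and 30.2 against 319 CPM, and S1pr1, which draws lymphocytes towards blood, had 1 UMI per library. Cxcr4, which binds the niche chemokine CXCL12, was at 212 against 420 and 171 against 332 CPM (log2 -0.99 and -0.96), just under 2-fold. The integrin chains Itga4 (286 against 337 and 396 against 368 CPM), Itgb1 and Itgb7 were within 2-fold of B cells. The gut homing receptors Ccr9 (2 and 2 UMIs) and Gpr15 (none) and the inflammatory receptors Cxcr3 (2 and 0) and Cxcr6 (6 and 0) were at or near 0.

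Fc and inhibitory receptors gave 2 higher and 3 lower genes among 6 tested, beside the same 9.72% and 17.1%. Slamf7, a plasma cell surface receptor, stood at 337 against 48.3 and 305 against 36.9 CPM (log2 2.80 and 3.05). Ctla4, a checkpoint receptor best known from T cells, stood at 200 against 43.5 CPM in oil and 245 against 27.9 in tamoxifen (2.20 and 3.13), in 11 of 21 and 16 of 30 cells. Cd72, Cd38 and Pdcd1lg2 were lower, with Cd38 at 19.6 against 107 and 30.2 against 102 CPM. Cd274 (PD-L1) had 22 and 29 UMIs and Cd200 13 and 25, and both stayed below the minimum. The inhibitory Fc receptor Fcgr2b had 11 UMIs in oil and 2 in tamoxifen.

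The ligands of these receptors were looked for among all kept cells. Tnfsf13b (BAFF) had UMIs in 749 oil cells and 1088 from tamoxifen, with 1084 and 1463 UMIs. Tnfsf13 (APRIL) had 20 and 49 UMIs, Il6 724 and 879 and Cxcl12 802 and 753. Ccl28, a ligand of Ccr10 made by epithelium, had 0 and 1, in a sort that takes CD45-positive cells. Of secreted immune products, plasma cells held 5 Il10 UMIs in 2 cells, 11 Ebi3 UMIs in 3 oil cells, 2 Csf2 UMIs and 37 Tgfb1 UMIs in 18 cells. Tgfb1 was called lower than in B cells (log2 -1.25 in both libraries). Gzmb had 8 UMIs, all in 1 oil cell.

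Cycling genes were few. Only 3 of 17 were tested against B cells and none was called. Mki67 had 68 UMIs in 9 oil cells, 70.6% of them in 1 cell, and 20 UMIs in 11 tamoxifen cells. Top2a had 18 and 7. The cycling list held a median of 0.0450% of UMIs outside immunoglobulin genes per cell, and 4 cells stood far above it, 1 in oil at 0.916% and 3 in tamoxifen at 0.753%, 0.715% and 0.436%. Of 10 tested genes of autophagy and nutrient sensing, Map1lc3b (log2 1.20 and 1.36) and Slc3a2, the CD98 heavy chain of amino acid transporters (2.28 and 1.99), were called higher and Sesn3 lower. Both higher calls were lost with CPM over all UMIs. Of 14 immediate early genes, which respond to cell handling, 2 were called lower, Ier2 and Hspa1b, and none higher, near the 17.1% and 9.72% of all tested genes. Ier2 lost its call under median-of-ratios scaling, and Hspa1b with cells weighted equally and at 100 UMIs.

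IgA plasma cells were compared with the 11 others, which pool IgM and IgG cells, over both libraries. Ccr10 had the largest log2 ratio of the 37 genes of 4 lists with at least 30 UMIs. It was found in 36 of 40 IgA cells and 4 of 11 others, at 737 against 116 CPM, log2 2.67 (1.99 to 3.45). The direction was the same in each library, at 742 against 74.9 CPM in oil and 733 against 176 in tamoxifen, and no IgA cell held more than 7.85% of its UMIs. Tnfrsf17 was at 365 against 135 CPM, log2 1.44 (0.77 to 2.17), with 346 against 128 in oil and 377 against 144 in tamoxifen. Ell2 (1.16, 0.51 to 1.87), Sdc1 (0.75, 0.14 to 1.41) and Cd274 (1.55, 0.32 to 3.08) also leaned to IgA cells in both libraries. Ctla4 did so only in oil, at 272 against 74.9 CPM, against 242 and 257 in tamoxifen.

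Other genes were higher in the IgM and IgG cells. Cd28 stood at 136 CPM in IgA and 263 in other cells, log2 -0.95 (-1.57 to -0.33), and in both libraries (167 against 343 and 114 against 144). Ccr2, a receptor for inflammatory chemokines, had 1 UMI in 40 IgA cells and 14 in 5 of 11 others, a log2 ratio of -5.16 with an interval from -10.56 to -2.44, and Fcgr2b had 1 and 12. Both lie under the 30 UMIs used above, and 1 cell held 42.9% of the Ccr2 and 58.3% of the Fcgr2b UMIs of the other cells. Traf1, a signalling adaptor of TNF receptors, was at 45.3 against 225 CPM, but 51.4% of the UMIs of the other cells came from 1 cell. Bcl2a1b was at 141 against 353 CPM over both libraries and turned round in tamoxifen, at 114 against 16.0. The integrins Itga4 (0.18), Itgb1 (0.01) and Itgb7 (0.13) and the factor Prdm1 (0.28) had intervals that include 0. With 11 cells in the smaller group, from 2 libraries, these are descriptions of those cells.

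**Figure D4:**
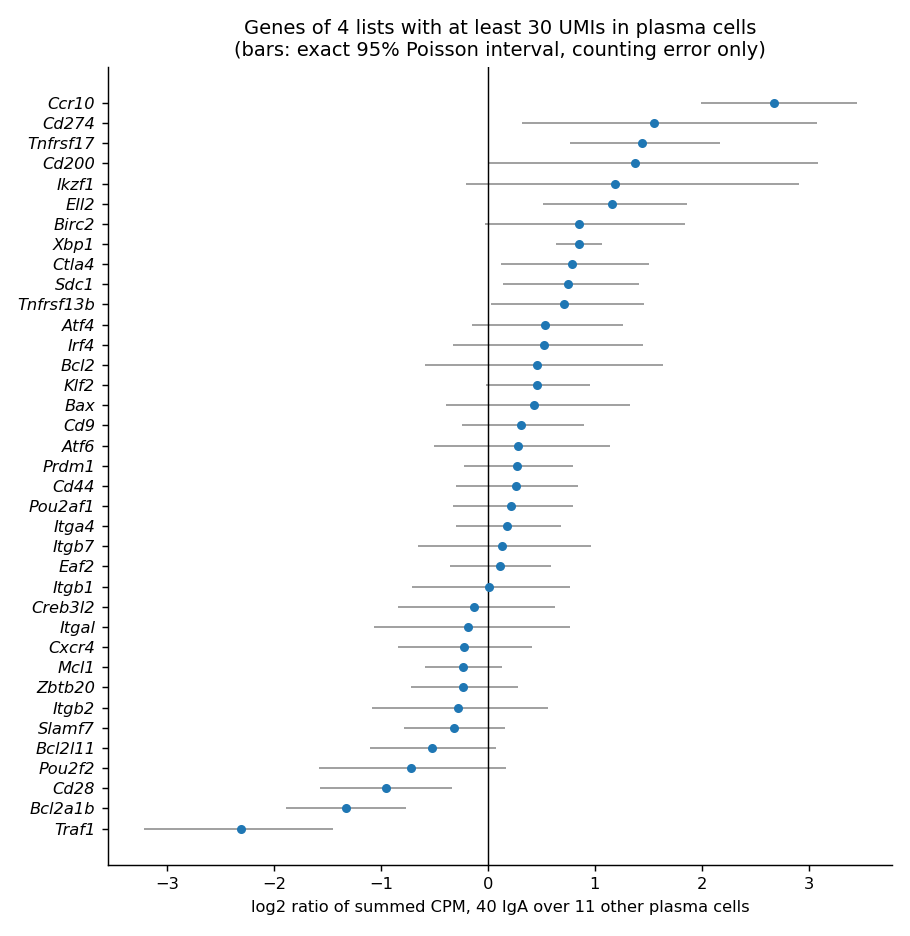
Log2 ratio of summed CPM in 40 IgA over 11 other plasma cells, both libraries pooled (x axis), for 37 genes of 4 lists with at least 30 UMIs (y axis); bars are exact 95% Poisson intervals for counting error. Ccr10 lies farthest to the right, at 2.67, and Traf1 farthest to the left, at -2.31.

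The comparison of tamoxifen with oil asks what the loss of Hhip from Gli1 cells does to the resident immune cells, here within plasma cells alone. Of 1371 genes with at least 30 UMIs in the higher library, 136 were past 2-fold (9.92%), 63 higher (4.6%) and 73 lower with tamoxifen (5.32%), and the median log2 ratio was 0.05. Much of this rests on few cells. Without the 7 cells that held markers of another type, an alternative added after the data were seen, 74 genes were past 2-fold, 13 higher and 61 lower, and 50 of the 136 calls were kept. Without the deepest cell of each library 89 were called, 39 of them higher.

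The secretory genes differed little between the libraries. None of 20 translocon, 14 degradation, 14 N-glycosylation or 9 disulfide genes was past 2-fold, against 9.92% of all tested genes. Of 16 chaperones only Hyou1 was, lower at 263 CPM in oil and 117 in tamoxifen (log2 -1.16), and it lost that call in 5 alternative settings. Medians of these lists lay between -0.31 and -0.03. Of 18 transport genes Sec13 was higher (log2 1.14), a call lost in 4 alternative settings: IgA cells, female cells, no cells with another type's transcripts, and 100 UMIs. Tnfrsf17 differed by 0.30 (-0.16 to 0.77), Ccr10 by 0.31 (-0.02 to 0.65), Sdc1 by -0.16 (-0.66 to 0.33) and Prdm1 by -0.60 (-1.04 to -0.17) on the log2 scale, all under 2-fold. Cd28 was at 231 CPM in oil and 121 in tamoxifen, log2 -0.94 (-1.58 to -0.32). Irf4 was past 2-fold lower with tamoxifen, at 184 and 77.1 CPM, on 47 and 23 UMIs, and lost that call among female cells and at 100 UMIs.

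Nfkbia, the inhibitor induced by NF-kappaB, depended least on 1 cell among the 12 named genes lower with tamoxifen. It had 314 UMIs in all 21 oil cells and 122 in 25 of 30 tamoxifen cells, 1231 and 409 CPM, log2 -1.59 (-1.90 to -1.28), and no cell held more than 22.9% of the oil UMIs. Samd11 had 68 UMIs in 9 of 21 oil cells and none in tamoxifen. Its log2 ratio had an exact upper limit of -4.39, and 1 cell held 42.6% of the oil UMIs. Bcl2a1d (48 and 8 UMIs), Wars (32 and 5), Gbp2 (38 and 8), Rgs2 (46 and 11) and Kdm6b (57 and 16) were also lower. Among IgA cells alone Rgs2 turned to 0.11 on the log2 scale, and Bcl2a1d and Kdm6b lost their calls there and among female cells. Ccl17 had 187 UMIs in oil and 2 in tamoxifen, with 65.8% of the oil UMIs in 1 cell. Il1b (79.4% in 1 oil cell), Mki67 (70.6%), Kdm6b (59.6%), H2-Aa (58.7%), Slpi (58.0%), Gbp2 (55.3%) and Wars (50%) rested on a single oil cell in the same way.

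All 3 tested genes of the 12 macrophage markers, Chil3, Lyz2 and Cd68, were past 2-fold higher with tamoxifen. So was the 1 tested neutrophil marker, Mmp9, beside 4.6% of all tested genes. All of these markers lost their calls without the 7 cells that held markers of another type. Those cells were picked partly by these same markers, so the loss partly describes that choice. Ccl6 and Lgals3 are outside the marker lists. Chil3 (4 and 142 UMIs), Ccl6 (3 and 85) and Lgals3 (12 and 85) are abundant in alveolar macrophages, which were 1657 of the tamoxifen and 283 of the oil barcodes, and 59.9%, 55.3% and 49.4% of their tamoxifen UMIs came from 1 cell. Acp5 (23 and 413 UMIs), S100a4 (54 and 293), Cstb (32 and 127) and Vim (233 and 706) owed 93.2%, 95.2%, 76.4% and 66.7% of theirs to 1 cell. Without the 7 cells with markers of another type, S100a4 turned to -1.88, Mt1 to -0.65, Vim to -0.15, Cstb to -0.16 and Acp5 to -0.086 on the log2 scale. P2ry10, a lymphocyte receptor for lysophospholipids, was less concentrated. It had 17 and 67 UMIs in 9 and 16 cells and 32.8% in 1, log2 1.75 (0.97 to 2.62), and it kept its call in all settings but the one with at least 100 UMIs. Dstn had 7 and 35 UMIs with 20% in 1 cell (2.10, 0.90 to 3.51), but lost its call without the deepest cell of each library, without cells holding another type's transcripts, in female cells and at 100 UMIs.

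Prg2 was higher in tamoxifen plasma cells, with 173 and 989 UMIs, log2 2.29 (2.06 to 2.53). In tamoxifen 39.5% of its UMIs came from 1 cell and in oil 50.9%. The libraries also differed in the sex of their plasma cells as read from Xist and Y-linked transcripts: 20 of 21 oil cells were female and none male, against 16 female and 6 male of 30 in tamoxifen, although both libraries held cells of both sexes (54.7% female and 20.8% male in oil, 60.7% and 16.6% in tamoxifen). Among female cells alone, an alternative added after the data were seen, Prg2 turned to -0.63, and 76 genes were past 2-fold, 28 higher and 48 lower. Within IgA cells the comparison gave 126 genes, 89 of them higher. The part of sex, isotype and transcripts of other cells in the difference between the libraries was not tested, and with 1 library per group it cannot be told apart from the treatment.

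**Figure D5:**
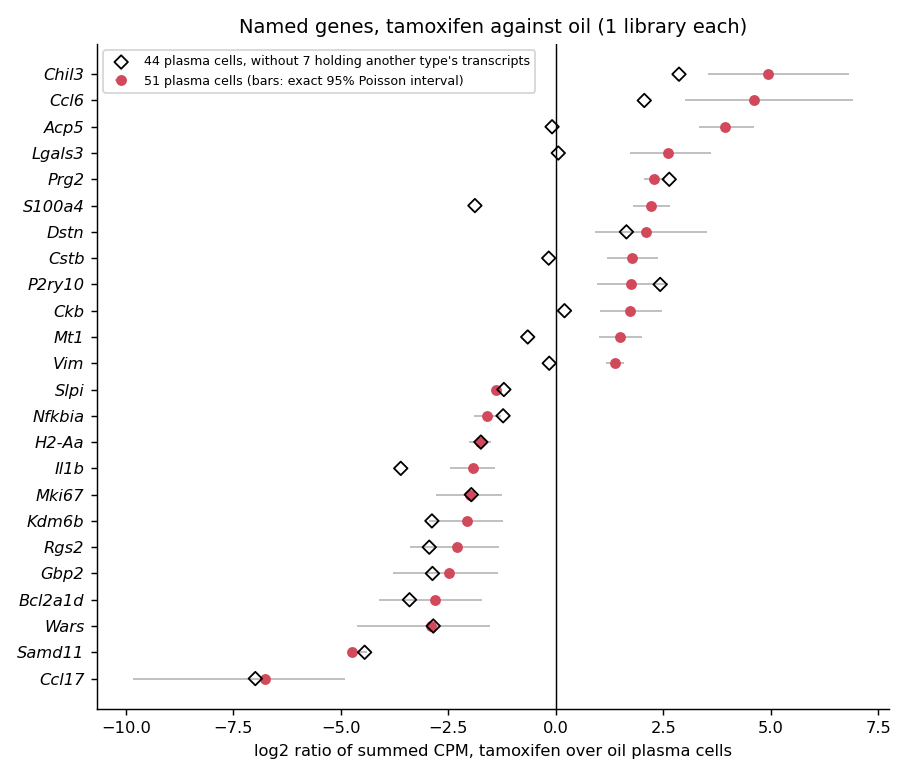
Log2 ratio of summed CPM in tamoxifen over oil plasma cells (x axis) for the 24 genes named for this comparison (y axis). Red points use all 51 plasma cells, with exact 95% Poisson intervals for counting error, and open diamonds leave out 7 cells that held markers of another cell type; S100a4, Vim, Cstb, Acp5 and Mt1 cross 0 without them, and the 12 lower genes stay below 0.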

How the data were processed

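The authors deposited raw UMI counts for each library; Cell Ranger 5.0.1 and GRCm38 (mm10) are named in the submitters' processing notes (annotation not given in the sources used here). These counts were used without correction for free RNA. Members, gene lists and alternatives were chosen with earlier results of these data known. Genes named are list members and, among called genes, up to 20 each way for plasma against B cells (ranked by the weaker library's interval limit closest to equality) and up to 12 for tamoxifen against oil, the latter with a UMI in at least a fraction of 0.25 of the higher library's cells. The rankings leave out immunoglobulin segments, rule genes, mitochondrial, ribosomal, haemoglobin, Xist, Y-linked and unnamed genes. T cells had at least 2 Cd3 UMIs and no Cd79a or Ms4a1, and alveolar macrophages at least 5 Chil3 and 2 Ear2 UMIs without Cd3 or Cd79a. Immunoglobulin genes and Jchain were left out of CPM totals. Shares have Clopper-Pearson intervals, ratios of UMIs exact Poisson intervals and ratios of shares normal-approximation intervals on the log scale, at 95%, for counting error only, and a count of 0 was set against 3. Scrublet ran through scanpy 1.11.5 on kept barcodes. Doublets were marked, not removed. Gene positions came from GENCODE vM21 on GRCm38, matched by gene identifier, and promoter sequences from RefSeq GRCm38.p6. Python 3.11.15, numpy 2.4.6, scipy 1.17.1, pandas 2.3.3 and matplotlib 3.10.9 were used, and the ratio steps were tested on simulated counts. Alternatives covered scaling, UMI minimums, filters, thinning depths and left-out cells. Results of some genes are not reported here.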

Additional observations from a re-analysis of the deposited data

Results flagged for a closer look

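Some genes lay past 2-fold over B cells in one direction in oil plasma cells and in the other in tamoxifen plasma cells. The difference between the libraries was not tested. The log2 ratios in oil and tamoxifen were 1.32 and -5.54 for Ccl17, 3.68 and -3.28 for Ccl5, 1.39 and -2.57 for Mgl2, 1.26 and -2.47 for Tbc1d4, and 1.10 and -1.05 for Tnfaip3. They were -2.10 and 3.82 for Ly6k, -1.08 and 1.97 for S100a4, -1.67 and 1.62 for Lpl, -1.26 and 2.87 for Gsn, -1.13 and 6.96 for Mfap4, and -1.78 and 6.96 for Mgp. Mfap4 and Mgp had no UMI in oil plasma cells, so their oil ratios were set against 3 UMIs and are approximate upper limits. The tamoxifen ratio of Mfap4 rests on 2 B cell UMIs and has an interval from 5.01 to 10.06. One cell held 98.7% of the tamoxifen UMIs of Ly6k, 97.3% of those of Mfap4, 95.2% of S100a4, 88.8% of Mgp and 86.0% of Gsn, and 1 oil cell held 73.7% of Ccl5 and 65.8% of Ccl17.

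Beyond the filters, 2 oil barcodes met every marker limit but had mitochondrial shares of 19.7% and 20.2%. Immunoglobulin genes took 16.6% of the 1250 UMIs of the first, an IgG kappa barcode with 219 genes, and 32.3% of the 2858 UMIs of the second, an IgA barcode with 721 genes.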

How the results depend on the processing

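No paired analysis was possible because each group is 1 library. The plasma cell share ranged from 0.254% to 0.384% over the alternatives, and the IgA share from 77.3% to 80%; neither moved beyond counting error. Counts of genes for plasma against B cells were 2463 with CPM over all UMIs (99 higher, 2364 lower), 1114 with at least 10 UMIs (494 higher) and 298 with at least 100 (95 higher, 203 lower), and 229 genes were lower under median-of-ratios scaling. For tamoxifen against oil they were 796 with at least 10 UMIs (421 higher, 375 lower), 28 with at least 100 (15 and 13), 89 without the deepest cell of each library (39 higher), 74 without cells holding another type's transcripts (13 higher) and 76 in female cells (28 and 48), and 37 were lower in IgA cells. Thinned to 500 UMIs, 17.6% of plasma cells held a Tnfrsf17 UMI, against 37.3% at 1000.

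On the log2 scale, Cd9 turned to -0.045 and Ell2 to -0.094 against B cells with CPM over all UMIs. For tamoxifen against oil, leaving out the deepest cell turned S100a4 to -2.0, Cstb to -0.11, Cd68 to -0.16 and Cd83 to 0.14. Leaving out cells with another type's transcripts turned S100a4 to -1.88, Cd68 to -0.94, Mt1 to -0.65, Cd9 to -0.31, Cstb to -0.16, Vim to -0.15 and Acp5 to -0.086. Cd68 is a macrophage marker by which those cells were picked, so its change partly describes that choice. IgA cells alone turned Il1b to 2.46, Atf3 to 1.46, H2-Aa to 0.93, Cd83 to 0.56, Ifi27l2a to 0.51, Rgs2 to 0.11, Traf1 to 0.11 and Ly6k to -1.28. Female cells alone turned Il1b to 0.84, S100a4 to -0.89, Acp5 to -0.87, Ly6k to -0.67, Prg2 to -0.63 and Vim to -0.25. The cause was not tested, beyond the smaller number of cells or genes that each alternative leaves. The settings without cells of another type and with female cells alone were chosen after seeing the data. With 51 cells and 1 library per group, depth limits the sparse receptors most: genes under 30 UMIs have no call here.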
